A study of Drosophila melanogaster with 2 samples.

Results

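The chemosensory receptor genes of Drosophila melanogaster, 59 odorant receptor (Or), 60 gustatory receptor (Gr) and 60 ionotropic receptor (Ir) genes, were examined for binding of Unc-4 in embryos. They were taken by name: every protein-coding gene of the Ensembl annotation whose symbol begins with Or, Gr or Ir followed by a digit, which gave 179 of 13968 coding genes. A further 7 pseudogenes with such names were left out. The measurement was chromatin immunoprecipitation sequencing (ChIP-seq), which recovers the DNA bound to a protein, for Unc-4 fused to eGFP. There was 1 group, whole embryos of the strain unc-4-GFP at 6 to 18 h, with 2 biological replicates and no untagged or other genotype beside it. Per the descriptions the antibody was against GFP, whereas the antibody label reads unc-4. Per the source name the strain carries an insertion that targets unc-4. The labels do not say how much of the gene's own regulatory sequence drives the fusion, how many embryos were pooled or how many of their cells contain it. Chromatin was sonicated to between 200 and 800 bp.

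Unc-4 is a homeodomain transcription factor known from subsets of neurons of the embryonic nervous system. Or and Gr genes encode membrane channels that detect volatile and contact chemicals, and Ir genes encode relatives of glutamate-gated channels that detect acids, amines, humidity and temperature. Each sensory neuron uses a few of these genes together with a co-receptor. Most are known from the antenna, palp, legs and mouthparts of the adult, and a smaller set from the larva, whose sense organs form in the late embryo. In bulk embryos, binding in few cells and weak binding in many cells cannot be told apart.

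A summit is the position of strongest signal in a peak of the authors' lists. A receptor gene was given a window, the gene and 5 kb on either side, and a summit was called own-start when it lay within 1 kb of an annotated transcript start of that gene. Each summit was also assigned to the gene with the nearest annotated start. The list of both replicates pooled held 4899 peaks on nuclear chromosomes with a median signal of 107, and the thresholded lists of replicates 1 and 2 held 3457 and 2960 peaks with medians of 116 and 63.4. Signal is the authors' value, whose scale is not stated, so it is compared only within a list. The lists hold no read counts, so the depth of either library is unknown.

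Peaks were scarce at receptor genes. In the pooled list 36 of the 179 receptor genes had a summit in the window, or 20.1% (95% Wilson interval 14.9 to 26.6), against 57.1% of all coding genes. Replicate 1 alone gave 32 receptor genes (17.9%) against 49.5% of all coding genes, and replicate 2 alone gave 30 (16.8%) against 46.1%. Of these genes 28 had a summit in both replicates, 4 in replicate 1 alone and 2 in replicate 2 alone. The other 143 receptor genes had no pooled summit in the window. Intervals here cover counting error over genes only, and neighbouring receptor genes that share a summit are not independent of each other.

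Summits at the receptors' own starts were scarcer still. Only 6 of the 179 genes had an own-start summit in the pooled list, or 3.35% (1.55 to 7.12), against 35.9% of all coding genes. These were Or88a, Gr97a, Ir31a, Ir60b, Ir60e and Ir76a. In replicate 1 there were 3 such genes, Ir31a, Ir60e and Ir76a, against 29.2% of all coding genes. In replicate 2 there were also 3, Or88a, Ir31a and Ir76a, against 25.5%. With the further condition that no other gene's start was nearer to the summit, the pooled list left 1 receptor gene, Ir76a, or 0.559% (0.0987 to 3.10), against 25.9% of all coding genes.

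**Figure D1:**
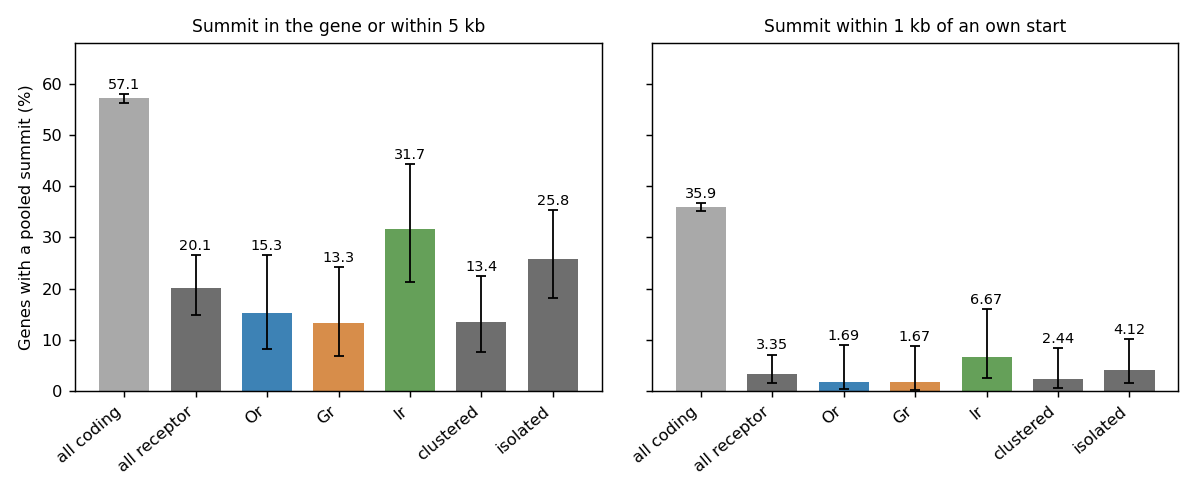
Share of genes with a pooled summit in the gene or within 5 kb (left) and within 1 kb of an own start (right), in percent, with 95% Wilson intervals as bars. All receptor groups lie below the share of all coding genes, 57.1% on the left and 35.9% on the right, and the Ir genes are the highest of the 3 families at 31.7% and 6.67%.

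The DNA under the own-start summits is shown for the 4 of the 6 genes that lie on chromosome arms 2L, 3L and 3R, as the DNA between each receptor start and its head-to-head neighbour or close to it. All sequence is from the RefSeq assembly Release 6 plus ISO1 MT, the assembly of the peak coordinates, on the plus strand unless said otherwise. Each stretch lies within 75 bp of the summit and outside annotated untranslated regions, so some end before the summit itself. Capitals mark TATCGA or its reverse complement TCGATA. This sequence is the core of the DNA replication-related element, known as the binding site of the factor DREF at many promoters of growth and housekeeping genes.
Ir31a summit, chr2L:10405204-10405299: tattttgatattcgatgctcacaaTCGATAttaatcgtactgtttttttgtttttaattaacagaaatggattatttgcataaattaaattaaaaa
Ir76a summit, chr3L:19801292-19801329: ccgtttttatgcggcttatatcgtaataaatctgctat
Gr97a summit, chr3R:26966861-26966929: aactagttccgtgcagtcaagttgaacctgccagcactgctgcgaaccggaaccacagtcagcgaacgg
Or88a summit, chr3R:14108414-14108564: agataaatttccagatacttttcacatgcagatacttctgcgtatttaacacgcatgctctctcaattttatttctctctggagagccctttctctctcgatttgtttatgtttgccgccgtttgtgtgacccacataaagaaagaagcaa
The Ir31a stretch starts at the first base upstream of LSm-4, and the Ir76a stretch fills the whole gap between the start of CG14102 and a start of Ir76a. Of these 4 printed stretches, that of Ir31a holds 1 match. At Ir76a a match lies within 50 bp of the summit but in bases not printed, and at Gr97a and Or88a none lies within 50 bp. The 100 bases just upstream of the receptor's own start, on the receptor's strand, are given for 3 of these 4 genes and hold no match. These are the genes with no annotated untranslated base in that stretch, and the stretches of Ir60b and Ir60e were not printed.
Ir31a upstream, chr2L:10405465-10405564: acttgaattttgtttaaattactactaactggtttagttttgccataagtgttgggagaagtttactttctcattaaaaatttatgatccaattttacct
Gr97a upstream, minus strand, chr3R:26966486-26966585: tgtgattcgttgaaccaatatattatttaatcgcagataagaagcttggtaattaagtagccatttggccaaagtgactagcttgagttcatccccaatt
Or88a upstream, chr3R:14109345-14109444: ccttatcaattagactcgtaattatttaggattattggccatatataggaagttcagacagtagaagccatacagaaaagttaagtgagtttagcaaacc

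At all 6 genes the nearest other gene starts on the opposite strand, head to head with the receptor gene. Ir31a encodes a receptor of acid-sensing antennal neurons and lies at chr2L:10405565-10408197 on the plus strand. Its summit at 10405224 had a pooled signal of 349, with 261 in replicate 1 and 78.7 in replicate 2. It stood 341 bp upstream of Ir31a but 21 bp from the shared start of LSm-4, a protein of RNA processing, and CG17768. Replicate 1 also listed a weak summit of 14.5 at 139 bp upstream of Ir31a, the nearest start to it. No counterpart was listed in replicate 2 or in the pooled list.

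Ir76a, a receptor of amine-sensing antennal neurons, lies at chr3L:19799278-19803427 and has 3 annotated starts. Its summit at 19801307 had a pooled signal of 190, with 137 in replicate 1 and 53.4 in replicate 2. It stood 23 bp upstream of the Ir76a start at 19801330 and 16 bp from the start of CG14102 at 19801291. The replicates placed the summit on different sides: in replicate 1 the start of CG14102 was nearest at 18 bp, and in replicate 2 that of Ir76a at 20 bp. The pooled list added a second summit in an overlapping peak, with a signal of 9.26 at 89 bp inside the start at 19801418. That weak summit is the one by which Ir76a counted as nearest, the start of CG14102 being farther from it. For the stronger summit at this bidirectional start, the assignment to CG14102 rests on a few bp. Ir76a also had the most window summits of the 179 genes, 5, the others being those at Ccdc58 with 370 and 134 and at the importin gene Kap-alpha1 with 218.

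The other 4 genes had weaker summits, not listed in both replicates after thresholding. Or88a, an odorant receptor of antennal neurons that detect fly-derived odours, lies at chr3R:14109445-14110823 and had a summit of 93.2 at 956 bp upstream, 168 bp from the start of CG12402. Replicate 2 listed it at 53.7, and replicate 1 held it only in its ranked, unthresholded list at 45.5. Gr97a, at chr3R:26965124-26966485 on the minus strand, had a summit of 64.2 at 451 bp upstream, 6 bp from the start of CG5521, and 1 of 13.2 at 651 bp. Neither replicate kept a Gr97a own-start peak after thresholding, and their ranked lists gave 38.4 and 32.8. Ir60e, on 2R, had a summit of 119 at 278 bp upstream, 44 bp from a start of CG13585, with 94.2 in replicate 1 and a ranked value of 27.1 in replicate 2. Ir60b, a receptor of pharyngeal sugar-sensing neurons also on 2R, had summits of 61.5 at 562 bp and 15.1 at 338 bp upstream, both nearest to the mitochondrial transporter gene Letm1. Its ranked values were 34.2 and 27.5.

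The annotated start of a receptor gene is often only its start codon. No 5' untranslated region is annotated for 130 of the 179 receptor genes (72.6%), against 3.59% of all coding genes, so the true start may lie upstream of the position used. Among the 130, 2 had an own-start summit, or 1.54% (0.423 to 5.44), and among all 502 coding genes without such a region, 23 had one (4.58%). Among the 49 receptor genes with an annotated 5' untranslated region, 4 had an own-start summit, or 8.16% (3.22 to 19.2), against 37.1% of all coding genes with one. The window, which does not hinge on the exact start, held a summit at 24 of the 130 (18.5%, 12.7 to 26.0). At the 49 it did so for 12 (24.5%, 14.6 to 38.1). The corresponding shares of all coding genes were 25.1% and 58.3%. The interval for the 49 lies below the 58.3%. The receptor genes without this region were set against only 502 genes, which themselves include those 130. Since the 130 had lower shares, the other genes without this region lie above the 25.1% and 4.58%. Whether the intervals for the 130 reach the shares of those other genes cannot be read from these values. A single start is annotated for 167 receptor genes (93.3%), against 73.5% of all coding genes.

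The 67 pairs of a receptor gene and a window summit came from 60 distinct summits, since 7 summits lay in more than 1 receptor window. For 58 of the 60 the nearest start belonged to another gene, which was coding and no receptor in 57 cases. The exception lay 169 bp from the noncoding RNA gene asRNA:CR43609 near Ir21a, a receptor of cooling-sensing neurons, named here after its value was seen. The remaining 2, or 3.33% (0.919 to 11.4), were the weak Ir76a summit and 1 of 79.8 at 1605 bp upstream of Ir47a. The Ir47a peak was in neither replicate's thresholded list, with ranked values of 48.1 and 29.0. Receptor starts made up 0.825% of all annotated starts in the genome. That is no reference for the 3.33%, since every window holds a receptor start, and the share of receptor starts within the windows was not computed. Summits lay at a median of 51 bp from the nearest start, and 66.7% lay within 100 bp, against 61.1% of all nuclear summits. Within 1 kb the shares were 93.3% and 92.4%, so these summits were placed on starts about as closely as the rest of the list.

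Relative to the receptor gene, 37 pairs had the summit downstream, 28 upstream and 2 inside. The 2 inside were both at Ir76a. The median signal of the 60 summits was 127, between 3.23 and 904, and 35 of them (58.3%) reached the median of all nuclear summits. Peaks in receptor windows were few, with a median signal above that of the whole list.

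**Figure D2:**
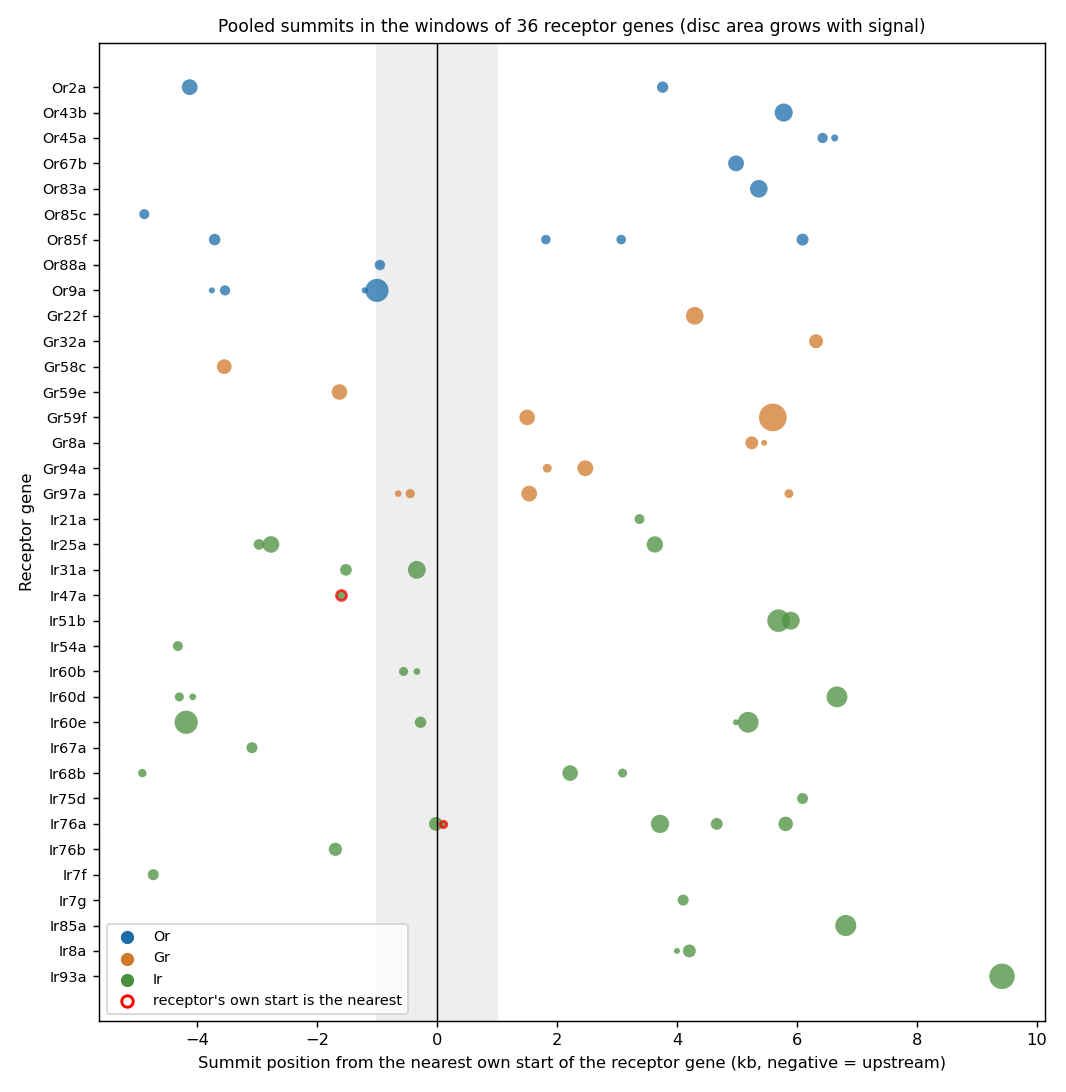
Position of each pooled summit from the nearest own start of the receptor gene in kb, negative upstream, for the 36 receptor genes with a window summit, with disc area growing with signal and the 1 kb zone shaded. Summits are scattered on both sides, 9 of the 67 pairs fall in the shaded zone, and red rings mark the 2 summits nearest to a receptor start.

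Strong peaks in receptor windows lay at starts of other genes. The DNA is shown at the 4 summits of highest signal among the 4 strongest genes of each family that lie on 2L, 3L, 3R and X. Capitals again mark TATCGA or TCGATA, on the plus strand and outside annotated untranslated regions.
Ir93a window, start of RpS30, chr3R:20850454-20850515: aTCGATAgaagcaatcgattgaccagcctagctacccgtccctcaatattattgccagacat
Or9a window, start of Neb-cGP, chrX:10460606-10460735: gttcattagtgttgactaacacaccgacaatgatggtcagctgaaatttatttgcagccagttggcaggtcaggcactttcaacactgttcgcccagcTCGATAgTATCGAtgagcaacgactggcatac
Ir85a window, start of CCT7, chr3R:8801420-8801563: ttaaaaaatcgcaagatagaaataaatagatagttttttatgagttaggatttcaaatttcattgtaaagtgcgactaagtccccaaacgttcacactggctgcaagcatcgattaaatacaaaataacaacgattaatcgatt
Gr22f window, start of CG17712, chr2L:1752123-1752233: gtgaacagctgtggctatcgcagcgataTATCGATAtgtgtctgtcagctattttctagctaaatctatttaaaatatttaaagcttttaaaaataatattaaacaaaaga
The stretches at Ir93a, Or9a and Gr22f hold a match, and that at Ir85a holds none. Among the odorant receptors, Or9a had the strongest, 617 at the start of Neb-cGP, with 412 in replicate 1 and 210 in replicate 2. At 1005 bp from the Or9a start, it was the closest summit beyond the 1 kb limit. Among the gustatory receptors, Gr22f had 346, from 244 and 107, at 36 bp from CG17712. Ir85a had 507, from 360 and 147, at 69 bp from the chaperonin subunit gene CCT7. Ir93a, a receptor of humidity- and temperature-sensing neurons, had 759, from 533 and 222. That summit was 13 bp from the start of RpS30, a ribosomal protein gene, and 9416 bp from the start of Ir93a. In each case both replicates listed the peak and the receptor start was the more distant.

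Other strong summits followed the same arrangement. Or43b had 362 (239 and 127) at Cul1, a ubiquitin ligase scaffold gene, Or83a had 342 (253 and 87.0) at CG1172, 5361 bp downstream of its own start, and Or67b had 269 (202 and 64.1) at CG3335. Gr59f had the highest signal in any receptor window, 904 (680 and 230), 46 bp from the start of wmd and 5595 bp from its own. Gr94a had 269 (182 and 104) at p53, the fly relative of the tumour suppressor, and Gr97a had 266 (204 and 63.3) at the tetraspanin gene Tsp97E. Ir60e had 623 (414 and 233) at CG4622. Ir51b had 587 (427 and 146) at row. All of these 8 peaks were in both replicates' thresholded lists.

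Of the 60 window peaks, 51 had a pooled signal of 50 or more. Both replicates kept 31 of these after thresholding, replicate 1 alone 11, replicate 2 alone 2 and neither 7. A peak counted as kept where any peak of the replicate's thresholded list overlapped it. The same replicate peak can thus count for more than 1 pooled summit, as at row near Ir51b and at tank and CG12194 near Ir25a. The 31 had a median pooled signal of 269 and the 7 one of 64.2, none of the 7 above 85.8. The remaining 9 peaks were under 50. Since the replicates' lists differ in median, a peak's signals in replicates 1 and 2 are given side by side and not compared.

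**Figure D3:**
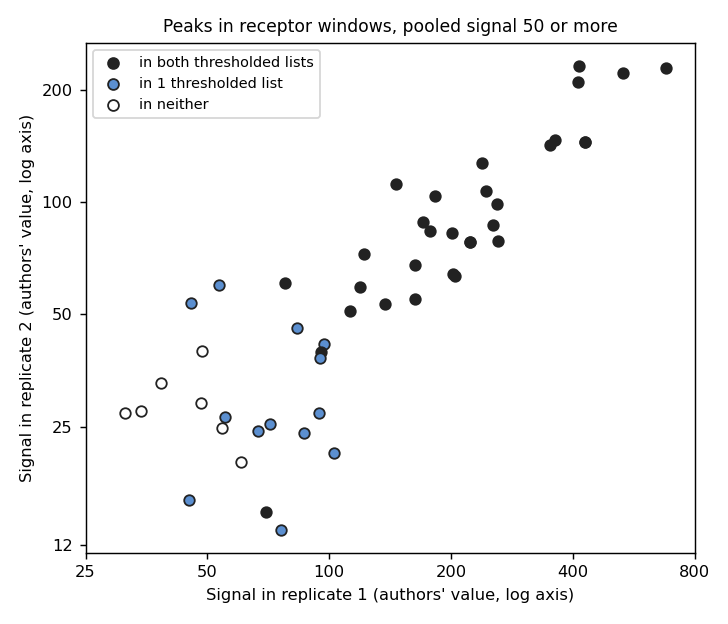
Signal of the 51 window peaks with a pooled signal of 50 or more in the ranked list of replicate 1 (horizontal) and replicate 2 (vertical), both on log axes, shaded by whether the thresholded replicate lists kept the peak. The 31 peaks kept in both lie mostly at the upper right, and the 7 kept in neither lie at the lower left. Points whose pooled peaks overlap the same replicate peaks fall on the same position.

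By family, the ionotropic receptors had the highest share of genes with a summit within 5 kb. The shares were 9 of 59 Or genes (15.3%, 8.24 to 26.5), 8 of 60 Gr genes (13.3%, 6.91 to 24.2) and 19 of 60 Ir genes (31.7%, 21.3 to 44.2). In replicate 1 they were 13.6%, 13.3% and 26.7%, and in replicate 2 they were 11.9%, 13.3% and 25%. The intervals overlap, and no test was made, since genes are not replicates of a condition. The order depended on the window: with 10 kb in place of 5 kb the shares were 22% for Or, 35% for Gr and 36.7% for Ir genes. Counted by locus, with neighbouring receptor genes joined, 9 of 50 Or loci (18.0%), 7 of 37 Gr loci (18.9%) and 16 of 40 Ir loci (40%, 26.3 to 55.4) held a summit.

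The same order appeared in the genes next door, in counts that rest largely on the same summits. Coding non-receptor genes that start in a receptor window numbered 206, of which 64 had an own-start summit, or 31.1% (25.1 to 37.7), close to the 35.9% of all coding genes. For the neighbours of Ir genes the share was 54.1% (33 of 61, 41.7 to 66.0), for those of Or genes 26.3% (21 of 80, 17.9 to 36.8) and for those of Gr genes 16.4% (11 of 67, 9.42 to 27.1). The 3 families had such a neighbour about equally often, 63.3% of Ir, 64.4% of Or and 65.0% of Gr genes.

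No coding non-receptor gene starts in the window of 35.8% of receptor genes, against 9.94% of all coding genes, whereas counting all other genes the median number of starts is 3 in both. Receptor genes were therefore set beside all coding genes with the same number of coding non-receptor neighbours. With no coding non-receptor gene starting in the window, 1 of 64 receptor genes had a summit (1.56%, 0.276 to 8.33), against 12.3% of 1388 coding genes. This gene was Ir47a, chosen for mention after its value was seen. With 1 such start the shares were 18.0% of 50 and 35.7% of 2155, with 2 they were 25.8% of 31 and 55.1% of 2731, and with 3 or more they were 52.9% of 34 and 71.9% of 7694. Receptor genes were lower at every number of neighbours, and in both groups the share rose with that number. All 9 Ir genes with 3 or more such neighbours had a summit, compared with 4 of 11 Or genes and 5 of 14 Gr genes.

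Own starts gave a like picture. Where another gene starts within 1 kb, 5 of 42 receptor genes had an own-start summit (11.9%, 5.19 to 25), against 53.3% of 6728 coding genes. Where none does, 1 of 137 did (0.730%, 0.129 to 4.02), namely Or88a, against 19.7% of 7240.

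**Figure D4:**
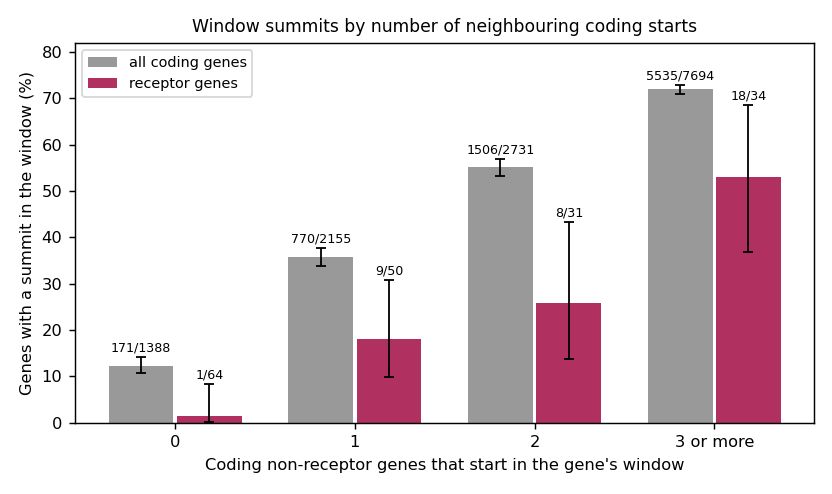
Share of receptor genes and of all coding genes with a window summit, in percent with 95% Wilson intervals, by the number of coding non-receptor genes that start in the window, with counts above the bars. Receptor genes rise from 1 of 64 to 18 of 34 and stay below all coding genes at each number.

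Many receptor genes lie in tandem arrays. Joining genes no more than 10 kb apart gave 82 clustered genes in 28 loci and 97 isolated genes. A window summit was found at 11 of the 82 clustered genes (13.4%, 7.66 to 22.4) and 25 of the 97 isolated genes (25.8%, 18.1 to 35.3). By locus the shares were 21.4% of clustered loci and 25.8% of isolated ones, so the difference between genes narrowed once each array counted once. Within families, clustered against isolated genes were 1 of 17 and 8 of 42 for Or, 4 of 35 and 4 of 25 for Gr, and 6 of 30 and 13 of 30 for Ir. Neighbours of clustered genes had an own-start summit in 28.9% of 45 cases and those of isolated genes in 31.7% of 161.

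The largest arrays held 6 genes each. The 6 sugar receptor genes Gr64a to Gr64f, at chr3L:4026769-4037575, had no summit in any window. In the array of 6 genes from Ir7b to Ir7g, at chrX:7864948-7886976, Ir7f and Ir7g shared 1 summit of 109 at the start of Acat1, a gene of acetyl-CoA metabolism, outside the array. Its signal was 86.8 in replicate 1 and 24.0 in the ranked list of replicate 2. Among the 5 loci of 4 or more genes, which hold 25 genes, Ir7b to Ir7g was the 1 with a summit. That is 20% of these loci, near the 21.4% of clustered loci and 24.8% of all loci. The widely spaced Ir60b, Ir60d and Ir60e, at chr2R:24515685-24531272, had window summits at all 3 genes and 6 distinct summits in all. None of these had a receptor start as the nearest.

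By function, the 3 ionotropic co-receptor genes Ir8a, Ir25a and Ir76b, whose products pair with other ionotropic receptors, all had window summits (3 of 3, interval 43.9% to 100%, which includes the 57.1% of all coding genes) and no own-start summit. At Ir8a the stronger summit was at CG12121, with a signal of 164 (112 and 50.9), 4204 bp from the Ir8a start and 3 bp from that of CG12121. A second, of 4.12, lay 3997 bp from the Ir8a start. Gr8a shares both. At Ir25a there were 3: 289 (201 and 83.0) at Fnta, a farnesyltransferase subunit gene, 302 (222 and 78.2) at tank, and 101 at CG12194. At Ir76b it was 176 (119 and 59.3), 1698 bp upstream and 385 bp from CG14187. The odorant co-receptor gene Orco, which falls outside the naming rule, had no window summit, and its start was 16634 bp from the nearest one.

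Antennal Ir genes, which serve smell, humidity and temperature, had window summits at 8 of 17 genes (47.1%, 26.2 to 69.0, against 57.1% of all coding genes). The divergent Ir genes, mostly of taste neurons, had them at 11 of 43 (25.6%, 14.9 to 40.2), and the intervals overlap. The antennal group includes the co-receptor genes Ir8a, Ir25a and Ir76b. Its median gene length was 3333 bp, against 1815 bp for the divergent genes, and a window includes the gene. Odorant receptors known from the larva had window summits at 5 of 25 (20%) and other odorant receptors at 4 of 34 (11.8%). Of the gustatory receptors, sugar receptors had them at 0 of 9, receptors shared by bitter neurons at 1 of 5, both carbon dioxide receptors at neither, and the rest at 7 of 44. A count of 0 of 9 carries an upper Wilson limit of 29.9%. The intervals for larval and other odorant receptors, 8.86% to 39.1% and 4.67% to 26.6%, overlap.

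Most receptor starts were far from any peak. The median distance from an own start to the nearest pooled summit was 19379 bp, with quartiles of 7724 and 42164.5, against a median of 4375 bp for all coding genes. The family medians were 27606 bp for Or, 18048.5 bp for Gr and 15062 bp for Ir genes. More than 10 kb separated 125 receptor genes (69.8%) from any summit, against 36.5% of all coding genes, and more than 50 kb separated 37. Of all coding genes, 89% lay within 50642 bp of a summit. Near the window limit, the summits of Ir85a, Ir7f and Or85c were inside at 4529, 4734 and 4883 bp from the gene, and those of Gr58b, Gr66a and Gr61a outside at 5104, 5471 and 5587 bp. At the limit of 1 kb, Or88a was inside at 956 bp and Or9a outside at 1005 bp.

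Among genes without a window summit, the nearest starts were those of Or85b at 6547 bp and Or7a at 8322 bp, Gr61a at 5587 bp and Gr59a at 5842 bp, and Ir100a at 7035 bp and Ir7e at 7081 bp. The farthest were Or35a at 124274 bp, Gr36a at 207589 bp and Ir41a, a receptor for polyamines, at 746396 bp. A few receptors were added for their known roles, after their values were seen. Or67d, the receptor for a male pheromone, was 47877 bp from a summit, and Or56a, the receptor for geosmin, was 31424 bp. The carbon dioxide receptor genes Gr21a and Gr63a were 30409 and 13013 bp away, and the bitter receptor gene Gr66a 7115 bp.

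**Figure D5:**
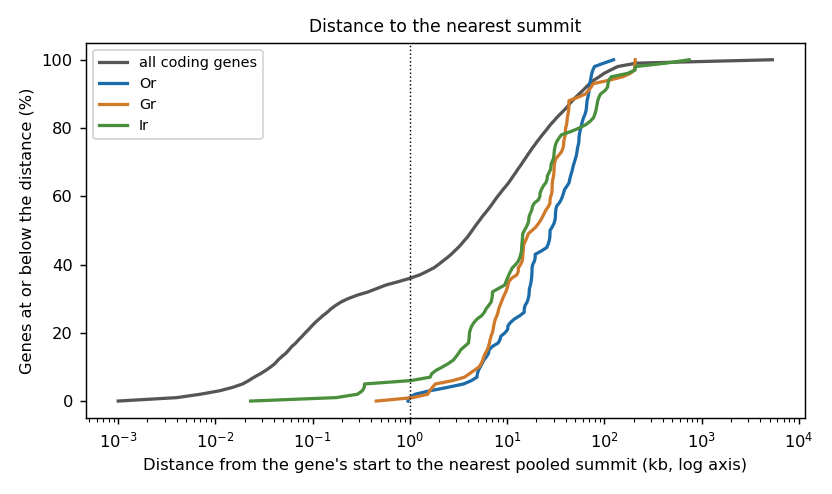
Percent of genes at or below a given distance from an own start to the nearest pooled summit, in kb on a log axis, for all coding genes and the 3 receptor families, with 1 kb dotted. The receptor curves reach at most 6.67% at 1 kb, that of the Ir genes, and have medians of 27606 bp for Or, 18048.5 bp for Gr and 15062 bp for Ir genes, against 4375 bp for all coding genes.

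The ranked lists, which also hold peaks that the authors' threshold left out, were searched for weaker signals. Replicate 1 held an own-start peak with no other start nearer at 15 receptor genes (8.38%) against 49.7% of all coding genes, and replicate 2 at 49 (27.4%) against 63.1%. Both replicates held one at 10 genes (5.59%) against 44.5%. The 10, named after their values were seen, were Or85e, Gr21a, Gr59f, Gr61a, Gr97a, Ir7g, Ir25a, Ir54a, Ir68b and Ir93a. With 1 value per receptor gene, at the 15 and 49 genes, the median signal was 13.8 in replicate 1 and 10.3 in replicate 2. The list medians were 18.3 and 10.4, taken over every peak, which is an unlike measure where a gene had more than 1 peak. At the 10 genes the signals ran from 9.48 at Or85e to 19.8 at Gr61a in replicate 1 and from 5.37 at Or85e to 16.8 at Gr97a in replicate 2. The strongest summits of the replicates lay close together at some, such as Gr61a at 12 and -42 bp from the start, Ir93a at 253 and 293 bp and Gr97a at 404 and 360 bp, where negative values are upstream. They lay apart at others, such as Gr21a at 267 and 666 bp and Ir54a at 104 and -836 bp. The authors' measure of rank agreement, the −log10 of the irreproducible discovery rate, was low at all 10 genes. It ran from 0.111 to 0.529 in replicate 1 and from 0.0630 to 0.283 in replicate 2. At the weak Ir31a peak that replicate 1 kept after thresholding it was 3.77. Closeness of such summits is thus no evidence of a reproducible peak.

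Short sequences were counted in the 300 bases from 250 before to 50 after each gene's 5' end, on either strand, as a description. TATCGA was present at 30 of 179 receptor starts (16.8%) and 27.7% of all coding starts. Of the coding starts without an annotated 5' untranslated region, 16.3% held TATCGA, and of the 130 receptor starts among them 20.8%. Among the coding neighbours in receptor windows it was present at 62.5% of the 64 with an own-start summit and 16.9% of the 142 without. Within 50 bp of the summit it was present at 27 of the 60 window summits (45.0%) and 32.1% of all nuclear summits. TAATTA, a core recognised by many homeodomain proteins, was present at 44.7% of receptor starts (44.1% of Or, 58.3% of Gr and 31.7% of Ir) and 20.4% of all coding starts. Of the coding starts without an annotated 5' untranslated region, 32.5% held TAATTA, and of the 130 receptor starts among them 46.2%. Within 50 bp of the summit the shares were close: 5% of the 60 window summits (3 of 60) and 5.74% of all nuclear summits held TAATTA there. TATAAA, the TATA box core, was present at 78.0% of Or, 30.0% of Gr and 55.0% of Ir starts, against 45.8% of all coding starts. GAGAGA was present at 6.70% of receptor and 12.3% of all coding starts, and GGTCACACT at 0 and 6.04%. Of the coding starts without an annotated 5' untranslated region, 6.57% held GAGAGA and 0 held GGTCACACT, close to the receptor shares. The median GC content of these 300 bases was 39.3% for receptor and 38% for all coding genes.

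Other chemosensory genes were counted beside the receptors, against the same 57.1% of all coding genes for the window and 35.9% for the own start. Of 51 odorant-binding protein genes, 17 had a window summit (33.3%) and 2 an own-start summit (3.92%), Obp47b with 115 and Obp93a with 119, and in both cases another gene's start was nearer. Of 9 further chemosensory genes, namely Orco, Snmp1, Snmp2, lush, Amt, ppk23, ppk25, ppk28 and ppk29, 3 had a window summit (33.3%). Among them ppk29, a sodium channel subunit gene, had an own-start summit of 100 with its own start nearest, 91 bp away. Its signals in the replicates were 59.0 and 58.4. Of 14 factors known to govern receptor choice, 9 had a window summit (64.3%) and 5 an own-start summit (35.7%), near the shares of all coding genes. The 5 with an own-start summit were Xbp1 with 672 (482 and 185), zf30C with 597 (407 and 201), mip120 with 297 (186 and 112), E2f2 with 297 (178 and 126) and mip130 with 250 (170 and 77.1). At E2f2 and mip130 another gene, Mpp6 and Edem1, had the nearer start.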

How the data were processed

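ChIP-seq of Unc-4-eGFP in 2 replicates of whole embryos was deposited as peak lists on assembly dm6, per the names of the lists. The authors filtered or ordered these by the irreproducible discovery rate (IDR), a measure of agreement in rank between lists. The aligner, the peak caller and the handling of controls were not given in the sources used here. The deposited lists give a signal value per peak, an offset in bp of the summit from the peak start, and in the ranked lists the −log10 of the global IDR. Depth is unknown.

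Summits were placed on genes of Ensembl release 115 (BDGP 6.54) with Python 3.11.15 and numpy 2.4.6, and positions count from 1. Shares carry 95% Wilson intervals from scipy 1.17.1. Starts of transposable elements were left out, and 23 coding genes on a chromosome without summits have no distance. Replicate signals are those of the strongest overlapping peak. With 1 group, no samples could be contrasted and no test was made. The scripts were tested on simulated data.

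Members and lists were chosen with earlier results of these data known. Named genes were those with an own-start summit in any thresholded list, the 4 strongest window signals per family, the gene with most window summits, the co-receptors, the largest clusters, the 2 nearest and 1 farthest gene per family without a window summit, and up to 4 own-start genes per further list. Alternatives were a more conservative pooled list, each replicate alone, other window sizes and limits, stronger peaks only and, chosen after seeing the data, genes with an annotated 5' untranslated region.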

Additional observations from a re-analysis of the deposited data

How the results depend on the processing

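Of 74 recomputed values for 10 results, 53 moved by less than their interval or spread and 21 by more. The order between groups was not part of this count. The Or share was above the Gr share in the main setting (15.3% and 13.3%) but below it in others, such as windows of 10 kb and of 2 kb. With windows of 10 kb, receptor genes with a summit rose from 20.1% to 31.3% (all coding genes 66.8%), and with 2 kb they fell to 10.6% (45.9%). With 10 kb the shares were 22% for Or, 35% for Gr, 36.7% for Ir, 25.6% for clustered and 36.1% for isolated genes. With 2 kb they were 5.08% for Or, 6.67% for Gr, 20% for Ir, 7.32% for clustered and 13.4% for isolated genes. Own-start summits were at 7.26% of receptor genes within 2 kb, against 40.1% of all coding genes. Where the own start had to be nearest, the shares were 0.559% and 25.9%. Among genes with an annotated 5' untranslated region they were 8.16% and 37.1%. The median distance to a summit was 22449 bp in the conservative list, against 5018 bp for all coding genes. For peaks at or above the median signal it was 30432 bp (all coding genes 9426 bp). With 1 replicate left out it was 25156 to 27640 bp (all coding genes 6976 to 8343 bp). The median signal of window summits was 176 in the conservative list (all its peaks 117) and 266 for the stronger peaks (all such peaks 252). With 1 replicate left out it was 78.2 to 122 (all peaks 63.4 to 116), where each list has its own scale. Among the stronger peaks, 0 of 35 window summits were nearest to a receptor start, which allows up to 9.89% by the Wilson interval. No paired analysis was possible because there is 1 group. The lists hold no reads, so binding too weak for the ranked lists was not detectable.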
